A study of Mus musculus with 8 samples.

Results

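The transcripts described here are those of the NFAT transcription factors and of calcineurin, the phosphatase that activates most of them. The 8 genes were taken as a given list: Nfatc1, Nfatc2, Nfatc3 and Nfat5 for the factors, Ppp3ca, Ppp3cb and Ppp3r1 for calcineurin, and Rcan1 for its feedback inhibitor. Ensembl identifiers were matched to mouse symbols, and all 8 were present among the 53465 genes counted in the fibroblast libraries and the 31053 counted in the T-lineage libraries. RNA-seq counts came from 8 libraries in 4 groups of 2, in a study of how TCF-1, the DNA-binding protein encoded by Tcf7, reorganises the genome. NIH-3T3, a mouse embryonic fibroblast line, was used untreated with a wild-type genotype (normal 3T3) or after TCF-1 induction. The Scid.adh line, a thymic lymphoma line used as a model of DN3 thymocytes (the double-negative stage at which precursors are committed to the T lineage), carried an empty vector on a wild-type genotype or was a Tcf7-/- knockout. Per the file headers, all 4 fibroblast libraries came from Cas9-carrying cells with an inducible construct at 72 hours, and doxycycline was named for the induced libraries only, so an effect of the drug and an effect of TCF-1 cannot be told apart in 3T3. No label states that libraries sharing a group came from separate cultures, or that the knockout was a single clone, so the p-values reflect the spread among the sequenced libraries and that spread may be technical.

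Calcineurin is a calcium- and calmodulin-dependent serine/threonine phosphatase built from a catalytic A subunit and a regulatory B subunit. When calcium enters a cell, for example after T cell receptor engagement, calcineurin removes phosphates from NFATc proteins, which then move into the nucleus, and kinases such as GSK-3 and DYRK reverse the step. NFAT5 is the exception in the family: it lacks the calcineurin-docking region and responds to osmotic stress. In thymocytes, NFAT activity accompanies pre-T-cell-receptor and T cell receptor signalling, and in fibroblasts calcium signals act through the same enzyme.

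Library totals over genes ranged from 13850213 to 17523677 counts in 3T3 and from 7740198 to 10392402 in Scid.adh. Levels are given as CPM, counts scaled to a common library size with TMM factors. Tcf7 itself stood at 14.5 and 14.6 CPM in the normal and 945.9 and 971.5 CPM in the induced 3T3 libraries, and at 1318 and 1325 CPM in empty-vector and 646.4 and 624.5 CPM in knockout cells. Tcf7 reads were thus present in the knockout libraries, and gene totals cannot tell whether they carry the edit. The 6 fibroblast markers summed to 27969 and 27316 CPM in normal and 24345 and 24208 CPM in induced 3T3 libraries, with 4 falling and 1 rising. In 3T3, Thy1 rose from 98.0 and 88.1 to 141.8 and 141.2 CPM and Ebf1 from 122.4 and 126.2 to 141.8 and 144.0 CPM, and the myeloid marker Cd68 rose by 0.51 on the log2 scale. The fibroblast list summed to 9.49 to 126 CPM in Scid.adh, where Pdgfrb made up nearly all of the empty-vector sum (119.7 and 125.1 CPM). Pdgfrb fell to 4.38 and 3.80 CPM in the knockout. Col1a1 rose there from 0.403 and 0.320 to 1.82 and 1.66 CPM, and Col1a2 from 0.806 and 0.534 to 2.43 and 2.25 CPM. The 9 DN3 markers summed to 4174 and 4164 CPM in empty-vector cells and to 3093 and 3118 CPM in the knockout, with 7 falling, while Rag2 stayed under 1 CPM in all 4 Scid.adh libraries. Of the NK markers only Eomes was tested, and it rose from 8.56 and 8.65 to 20.4 and 17.1 CPM, with Ncr1 and Klrd1 at 0. B-lineage markers summed to at most 1.09 CPM and myeloid markers to 8.01 to 12.5 CPM in Scid.adh. Of the myeloid markers, Itgam rose in the knockout from 5.64 and 3.84 to 8.51 and 8.66 CPM, and no other was called. The part of these marker shifts in the results for either line was not tested. Fewer cells of a type and less RNA per cell cannot be told apart in such bulk libraries.

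Promoter sequences are shown for the genes on which the results turn. Windows at RefSeq start sites (GRCm38.p6) were searched for 6 of the 8 genes, 9 windows in all, and Nfatc1 and Ppp3ca were not searched. Each is given as the 250 bases upstream of the start site, in the direction of the gene, with capitals marking matches to the TCF/LEF core (CTTTGA or CTTTGT) or to the NFAT core (GGAAA, or TTTCC on the other strand), searched on both strands. The first set is Nfatc2, the member with the largest fall after loss of TCF-1, with its 2 annotated starts 11292 bases apart on the minus strand of chromosome 2 (chr2:168601658-168601907 and chr2:168590366-168590615).
Nfatc2 distal start: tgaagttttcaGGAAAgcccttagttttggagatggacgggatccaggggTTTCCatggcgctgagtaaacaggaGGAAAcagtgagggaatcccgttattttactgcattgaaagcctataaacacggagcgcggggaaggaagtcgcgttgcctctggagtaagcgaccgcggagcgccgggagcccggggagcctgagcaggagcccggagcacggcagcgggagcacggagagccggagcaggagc
Nfatc2 proximal start: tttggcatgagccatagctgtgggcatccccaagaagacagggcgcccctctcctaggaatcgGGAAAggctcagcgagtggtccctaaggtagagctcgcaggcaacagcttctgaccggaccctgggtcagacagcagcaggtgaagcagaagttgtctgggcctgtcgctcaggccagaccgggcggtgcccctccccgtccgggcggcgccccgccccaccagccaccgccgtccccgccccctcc
The distal window held 3 NFAT cores and the proximal window 1, and neither held the TCF/LEF letters. Nfat5, the member with the firmest fall in 3T3, has its window at chr8:107293220-107293469 on the plus strand.
Nfat5: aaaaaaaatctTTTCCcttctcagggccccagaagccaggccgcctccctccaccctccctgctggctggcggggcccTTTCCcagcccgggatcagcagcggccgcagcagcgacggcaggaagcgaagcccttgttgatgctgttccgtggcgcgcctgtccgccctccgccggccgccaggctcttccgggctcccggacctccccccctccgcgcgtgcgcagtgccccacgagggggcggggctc
It held 2 NFAT cores, and its upstream sequence was 71.6% G or C. The next pair is Rcan1, which has a long-isoform start and an internal start 66091 bases downstream on the minus strand of chromosome 16 (chr16:92466170-92466419 and chr16:92400079-92400328). The internal start is known as an NFAT-responsive promoter of a calcineurin feedback loop.
Rcan1 upstream start: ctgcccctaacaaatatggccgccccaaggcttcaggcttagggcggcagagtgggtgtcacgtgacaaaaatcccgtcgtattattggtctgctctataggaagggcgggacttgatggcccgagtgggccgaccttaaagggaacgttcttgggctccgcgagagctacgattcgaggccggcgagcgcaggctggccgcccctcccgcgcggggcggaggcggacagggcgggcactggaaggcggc
Rcan1 internal start: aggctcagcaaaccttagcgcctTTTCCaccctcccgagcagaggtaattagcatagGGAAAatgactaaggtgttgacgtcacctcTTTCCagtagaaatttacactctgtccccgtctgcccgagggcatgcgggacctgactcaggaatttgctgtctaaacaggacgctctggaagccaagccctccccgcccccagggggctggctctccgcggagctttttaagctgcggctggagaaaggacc
The internal window held 3 NFAT cores and the upstream window 0. Counts per gene add up both starts, so they do not show which was used. Nfatc3 is shown because 1 of its 2 windows (chr8:106058568-106058817, plus strand) held the TCF/LEF letters. The other, at chr8:106059340-106059589, held neither motif and is not printed.
Nfatc3: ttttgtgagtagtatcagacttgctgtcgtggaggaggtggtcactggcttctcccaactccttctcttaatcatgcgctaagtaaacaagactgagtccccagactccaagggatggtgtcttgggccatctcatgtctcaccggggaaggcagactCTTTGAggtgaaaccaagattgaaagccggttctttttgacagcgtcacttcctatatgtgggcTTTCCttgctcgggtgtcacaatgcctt
It was the only window of the 9 with such a match, and the gene did not pass the test in either line, as described below. The windows of Ppp3cb, which also passed in neither line, and of Ppp3r1 are not printed. They held 3 and 0 NFAT cores. Of 32851 RefSeq windows of the same length, 27.6% held at least 1 TCF/LEF match, 55.6% at least 1 NFAT core and 6.39% at least 3. A match is a description of these letters and not a binding site.

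Induction of TCF-1 in 3T3 went with small changes in both directions in this set, and loss of TCF-1 in Scid.adh with a nearly 2-fold lower level of a single factor, Nfatc2. All 8 genes passed the filter on low counts in both lines. In 3T3, Nfatc1 and Ppp3ca rose, Nfat5 and Ppp3r1 fell, and 4 did not pass (edgeR quasi-likelihood test with Benjamini-Hochberg adjustment over all genes, call at an adjusted p under 0.05). The share called among all 18185 genes tested was 36.8%, with 18.5% rising and 18.3% falling, so 4 of 8 is not far from the background. In Scid.adh, Ppp3ca and Rcan1 rose, Nfatc2 and Nfat5 fell, and 4 did not pass, against 31.5% of 11941 genes called, 15.6% rising and 15.9% falling. With upper-quartile scaling, the split of all calls in Scid.adh moved from 1861 rising and 1899 falling genes to 2455 and 1215. In a test against a 1.5-fold change, 565 genes rose and 159 fell there. The median log2 fold change of the 8 genes was 0.08 in 3T3 and 0.03 in Scid.adh, beside 0.00037 and -0.0039 over all genes tested. The 2 libraries of each group did not overlap for 7 of 8 genes in 3T3 and 5 of 8 in Scid.adh, while this held for 65.1% and 66.7% of all genes tested.

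**Figure D1:**
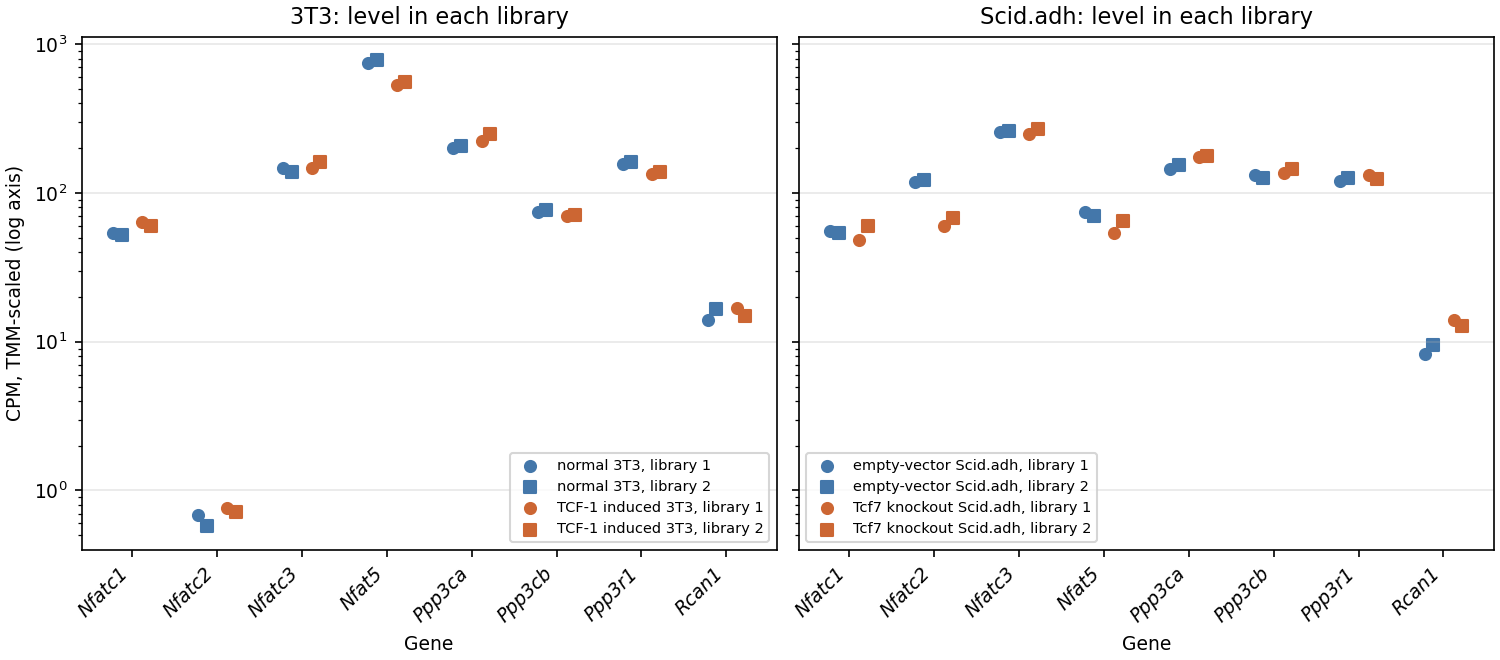
Level of each gene (x axis) in each library as TMM-scaled CPM on a log axis, with 3T3 on the left and Scid.adh on the right; blue marks the control group, orange the TCF-1 induced or Tcf7 knockout group, and circles and squares libraries 1 and 2. Nfatc2 lies under 1 CPM in all 4 3T3 libraries and drops from about 120 to about 60 CPM between the Scid.adh groups, and Nfat5 is the most abundant of the 8 by CPM in 3T3.

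Among Nfatc1, Nfatc2 and Nfatc3, Nfatc2 was the gene called in Scid.adh. Nfatc2 encodes NFAT1, a factor of cytokine gene activation in T cells, and lies on the minus strand of chromosome 2 (168476410 to 168601657, GRCm38). The empty-vector Scid.adh libraries held 118.3 and 122.9 CPM, and the knockout libraries 59.6 and 67.4 CPM. Both knockout libraries lay far below both controls. The log2 fold change was -0.92 (SE 0.08, 95% interval -1.10 to -0.74; edgeR adjusted p = 7.01e-06), a percent change of -47.3%. It passed in all 13 alternatives tried, a test against a 1.5-fold change included, with log2 fold changes from -1.01 to -0.85 and adjusted p from 3.70e-26 to 3.22e-05 in the 12 that test for any change. Of all genes tested in Scid.adh, 86.4% had a smaller absolute change. In 3T3 it was close to undetected, with 11 and 10 counts in the normal and 13 and 10 counts in the induced libraries, or 0.688, 0.574, 0.766 and 0.721 CPM. Its change there could not be resolved at this depth (log2 fold change 0.24, 95% interval -0.64 to 1.13, edgeR adjusted p = 0.723), and a rise to the level of Scid.adh did not take place in either induced library.

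Nfatc1, the factor also called NFATc or NFAT2 and known for amplifying its own transcription, lies on the minus strand of chromosome 18 (80606205 to 80713071). It stood at 54.2 and 52.2 CPM in normal and 63.6 and 59.7 CPM in induced 3T3 cells. The groups did not overlap, and the rise of 0.22 on the log2 scale (SE 0.06, 95% interval 0.10 to 0.33; edgeR adjusted p = 0.00281) amounted to 16.1%. The call was lost in DESeq2 (0.21, adjusted p = 0.057), in the joint fit of 8 libraries (0.19, adjusted p = 0.0513) and without normal library 2 (0.19, edgeR adjusted p = 0.0986). In Scid.adh the empty-vector level of Nfatc1 was 55.3 and 54.0 CPM, and the knockout level was 48.0 and 60.2 CPM, where the 2 libraries lay on either side of the controls. The log2 fold change was -0.01 (95% interval -0.25 to 0.22; edgeR adjusted p = 0.936). The second knockout library also had the largest share of reads outside genes, 25.8% against 21.3% to 22.3% in the other 3 Scid.adh libraries, and the part of this in its higher Nfatc1 level was not tested.

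Nfatc3, which encodes NFAT4, a factor prominent in thymocytes, was the most abundant NFAT transcript in Scid.adh and lies on the plus strand of chromosome 8 (106058840 to 106130537). Empty-vector cells held 257.5 and 260.7 CPM and knockout cells 249.2 and 268.6 CPM, and the groups overlapped. The interval of its log2 fold change ran from -0.14 to 0.14 (edgeR adjusted p = 0.990). In 3T3 the normal libraries held 146.1 and 137.8 CPM and the induced ones 146.2 and 161.2 CPM, a log2 fold change of 0.11 (SE 0.05) that missed the threshold narrowly (edgeR adjusted p = 0.052). It passed without induced library 1 (0.19, edgeR adjusted p = 2.63e-05), with the replicate number as a block (0.11, edgeR adjusted p = 0.0168) and with a minimum mean of 1 CPM (0.11, edgeR adjusted p = 0.0465). The value was smaller without induced library 2 (0.04, edgeR adjusted p = 0.439) and without normal library 2 (0.07, edgeR adjusted p = 0.519). Exons of Esrp2, on the opposite strand, cover 1.87% of the exon bases of Nfatc3, and Esrp2 stood between 10.2 and 11.6 CPM in 3T3 and between 1.81 and 3.20 CPM in Scid.adh.

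Nfat5, the osmotic-stress factor on the plus strand of chromosome 8 (107293470 to 107379517), showed the largest called change of the set in 3T3. Its normal libraries held 751.5 and 782.7 CPM and its induced libraries 534.7 and 560.3 CPM. Every induced library lay below every normal one. The log2 fold change was -0.49 (SE 0.03, 95% interval -0.55 to -0.42; edgeR adjusted p = 7.71e-17), a percent change of -28.7%. It passed in 12 of 13 alternatives, the exception being the test against a 1.5-fold change, with log2 fold changes from -0.52 to -0.45. Nfat5 also fell in the knockout, from 74.6 and 70.2 CPM to 54.2 and 65.2 CPM (log2 fold change -0.28, SE 0.10, 95% interval -0.49 to -0.06; edgeR adjusted p = 0.0494). This second call was weak. It was kept in 4 of 13 alternatives and was lost without empty-vector library 1 (-0.24, edgeR adjusted p = 0.199), empty-vector library 2 (-0.33, edgeR adjusted p = 0.0578) or knockout library 1 (-0.16, edgeR adjusted p = 0.224), in DESeq2 (-0.27, adjusted p = 0.165), in limma-voom (-0.28, adjusted p = 0.0514), with DESeq2 size factors or upper-quartile factors and with a minimum mean of 1 CPM.

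**Figure D2:**
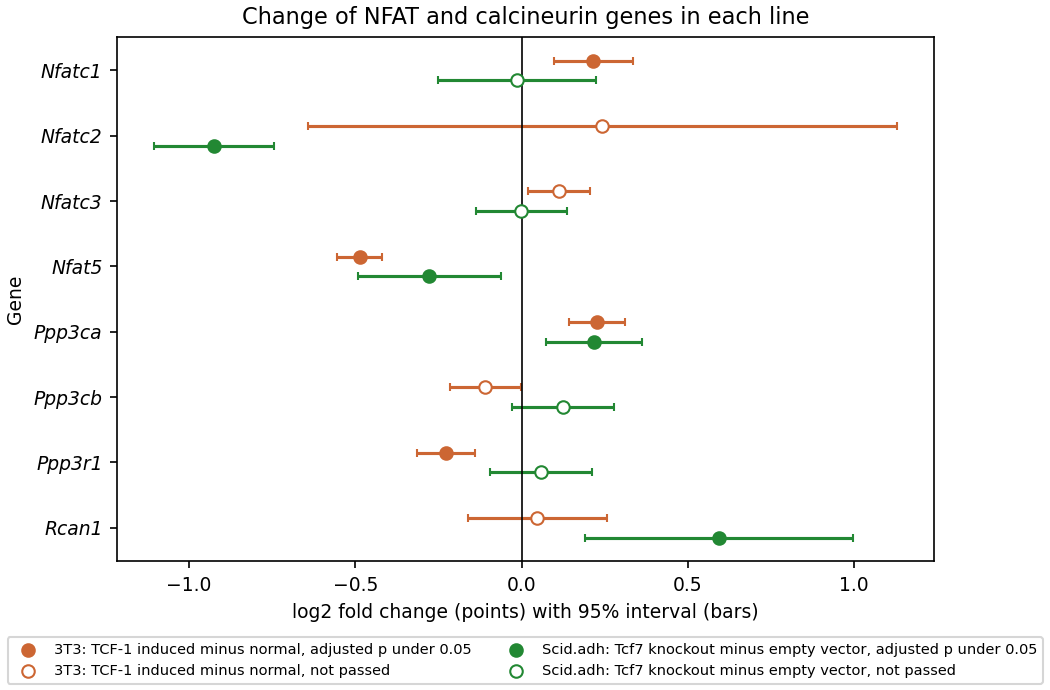
Log2 fold change of each gene with its 95% interval (x axis) for TCF-1 induced minus normal 3T3 (orange) and Tcf7 knockout minus empty-vector Scid.adh (green), filled where the adjusted p was under 0.05. Nfatc2 in Scid.adh (-0.92) and Nfat5 in 3T3 (-0.49) lie farthest to the left, and the Ppp3ca points of both lines lie at 0.22 to 0.23.

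The called changes of the calcineurin subunits were small, between -14.6% and 17.1%. Ppp3ca, the alpha isoform of the catalytic subunit (chromosome 3, 136670124 to 136937727, plus strand), rose in 3T3 from 199.3 and 205.4 CPM to 225.3 and 249.5 CPM. The groups did not overlap, and the log2 fold change was 0.23 (SE 0.04, 95% interval 0.14 to 0.31; edgeR adjusted p = 1.65e-05), with a call in 12 of 13 alternatives. In Scid.adh it rose from 145.7 and 155.2 CPM to 173.9 and 176.0 CPM (log2 fold change 0.22, SE 0.07, 95% interval 0.07 to 0.36; edgeR adjusted p = 0.0244). This call was lost without empty-vector library 1 (0.16, edgeR adjusted p = 0.380) or empty-vector library 2 (0.25, edgeR adjusted p = 0.131), in DESeq2 (0.22, adjusted p = 0.094) and without a filter on low counts (0.16, edgeR adjusted p = 0.11). Ppp3ca thus had the same sign after gain and after loss of TCF-1.

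Ppp3cb, the beta isoform of the catalytic subunit (chromosome 14, 20499364 to 20546573, minus strand), did not pass in either line. Normal 3T3 cells held 74.9 and 76.9 CPM, against 69.7 and 71.1 CPM after induction (log2 fold change -0.11, 95% interval -0.22 to -0.0022; edgeR adjusted p = 0.105). In Scid.adh, empty-vector cells held 132.1 and 125.8 CPM and knockout cells 135.5 and 145.6 CPM (log2 fold change 0.12, 95% interval -0.03 to 0.28; edgeR adjusted p = 0.202), and it passed there with upper-quartile factors (0.20, edgeR adjusted p = 0.0432). Its libraries did not overlap between groups in either line.

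Ppp3r1, the regulatory B subunit that both catalytic isoforms need (chromosome 11, 17159263 to 17200375, plus strand), fell in 3T3 from 157.3 and 161.0 CPM to 134.1 and 138.0 CPM. The groups lay apart, with a log2 fold change of -0.23 (SE 0.04, 95% interval -0.31 to -0.14; edgeR adjusted p = 2.57e-05) and a call in 12 of 13 alternatives. In Scid.adh the empty-vector libraries held 120.8 and 125.8 CPM and the knockout libraries 132.7 and 124.3 CPM, and the groups overlapped (log2 fold change 0.06, 95% interval -0.09 to 0.21; edgeR adjusted p = 0.561). Exons of Wdr92, on the same strand, cover 14.3% of the exon bases of Ppp3r1, so the counts of this gene depend on how shared reads were treated. Wdr92 stood at 66.9 and 65.1 CPM in normal and 59.4 and 60.9 CPM after induction in 3T3 (log2 fold change -0.13, SE 0.06, edgeR adjusted p = 0.0551). The part of shared reads in the fall of Ppp3r1 was not tested.

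Rcan1, the calcineurin inhibitor whose transcription NFAT is known to induce (chromosome 16, 92391953 to 92470867, minus strand), was the least abundant of the 8 in Scid.adh by CPM. It rose from 8.26 and 9.50 CPM with the empty vector (82 and 89 counts) to 14.0 and 12.8 CPM in the knockout (115 and 108 counts). Both knockout libraries were above both controls. The log2 fold change was 0.59 (SE 0.19, 95% interval 0.19 to 1.00; edgeR adjusted p = 0.0282), a level 50.9% higher. The call was lost in DESeq2 (0.60, adjusted p = 0.129), without a filter on low counts (0.54, edgeR adjusted p = 0.056), and without empty-vector library 1 (0.48, edgeR adjusted p = 0.167) or knockout library 1 (0.52, edgeR adjusted p = 0.0756). In 3T3 the libraries overlapped, with normal levels of 14.0 and 16.7 CPM and induced levels of 16.8 and 14.8 CPM (log2 fold change 0.05, 95% interval -0.16 to 0.26; edgeR adjusted p = 0.774). This sign turned without normal library 1 (-0.07) and without induced library 1 (-0.05).

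Levels were then compared between genes per kilobase of exon, since longer transcripts yield more reads. In normal 3T3 cells the order was Ppp3r1 (49.3 ± 0.793 CPM per kilobase, mean ± SD, n = 2), Nfat5 (41.7 ± 1.20), Ppp3ca (20.3 ± 0.429), Nfatc3 (12.1 ± 0.502), Ppp3cb (8.61 ± 0.159), Nfatc1 (7.12 ± 0.197), Rcan1 (4.98 ± 0.62) and Nfatc2 (0.0597 ± 0.0076). The libraries of each gene lay apart from those of the next in this order. With TCF-1 induced, Nfatc1 (8.25 ± 0.366) and Ppp3cb (7.99 ± 0.107) overlapped and the other neighbours did not. In empty-vector Scid.adh cells the order was Ppp3r1 (38.2 ± 1.09), Nfatc3 (22.1 ± 0.194), Ppp3ca (15.1 ± 0.678), Ppp3cb (14.6 ± 0.506), Nfatc2 (11.4 ± 0.309), Nfatc1 (7.32 ± 0.122), Nfat5 (3.94 ± 0.169) and Rcan1 (2.88 ± 0.285), of which Ppp3ca and Ppp3cb overlapped. In the knockout Nfatc2 (6.003 ± 0.523) came after Nfatc1 (7.24 ± 1.15), and Rcan1 (4.34 ± 0.267) came before Nfat5 (3.25 ± 0.42). These levels rest on the annotated exons, and with the longest transcript as the length Nfat5 (57.1) stood above Ppp3r1 (55.7) in normal 3T3 cells and Nfatc3 (43.3) above Ppp3r1 (43.1) with the empty vector. Ppp3cb (33.7) also passed Ppp3ca (31.6) with the empty vector. In induced 3T3 cells Ppp3ca (49.9) then came first, above Ppp3r1 (47.6) and Nfat5 (40.7), and Ppp3cb (18.4) stood above Nfatc1 (12.8).

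The make-up of the family differed between the lines, which were counted on different gene tables, so that levels across them are a description. Of the summed level per kilobase of the 4 NFAT genes, Nfat5 made up 68.4% ± 1.41 (SD, n = 2) in normal and 58.2% ± 0.198 in induced 3T3 cells, and 8.80% ± 0.42 with the empty vector and 8.41% ± 0.378 in knockout Scid.adh cells. Nfatc3 made up 49.4% ± 0.201 with the empty vector and 57.3% ± 1.81 in the knockout. Nfatc2 went from 25.5% ± 0.569 to 15.6% ± 0.0398 between these groups and was 0.0978% and 0.137% in normal and induced 3T3 cells. Nfatc4, which is not in the set, lay outside this sum. With Nfatc4 added, an alternative chosen after seeing the data, Nfat5 made up 55.9% ± 1.48 in normal and 45.1% ± 1.24 in induced 3T3 cells and Nfatc4 18.2% ± 0.467 and 22.4% ± 1.86, while in Scid.adh Nfatc4 took 0.0603% in empty-vector and 0.355% in knockout cells. For the catalytic subunits, Ppp3cc, the gamma isoform, was added to the sum. In 3T3, Ppp3ca made up 64.1% ± 0.0713 of it in normal and 67.3% ± 1.21 in induced cells. In Scid.adh Ppp3ca and Ppp3cb had near-equal shares with the empty vector, 50.6% ± 1.93 and 49.1% ± 2.03, and Ppp3cc made up 0.293% ± 0.0925, against 8.74% ± 0.175 in normal 3T3 cells.

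**Figure D3:**
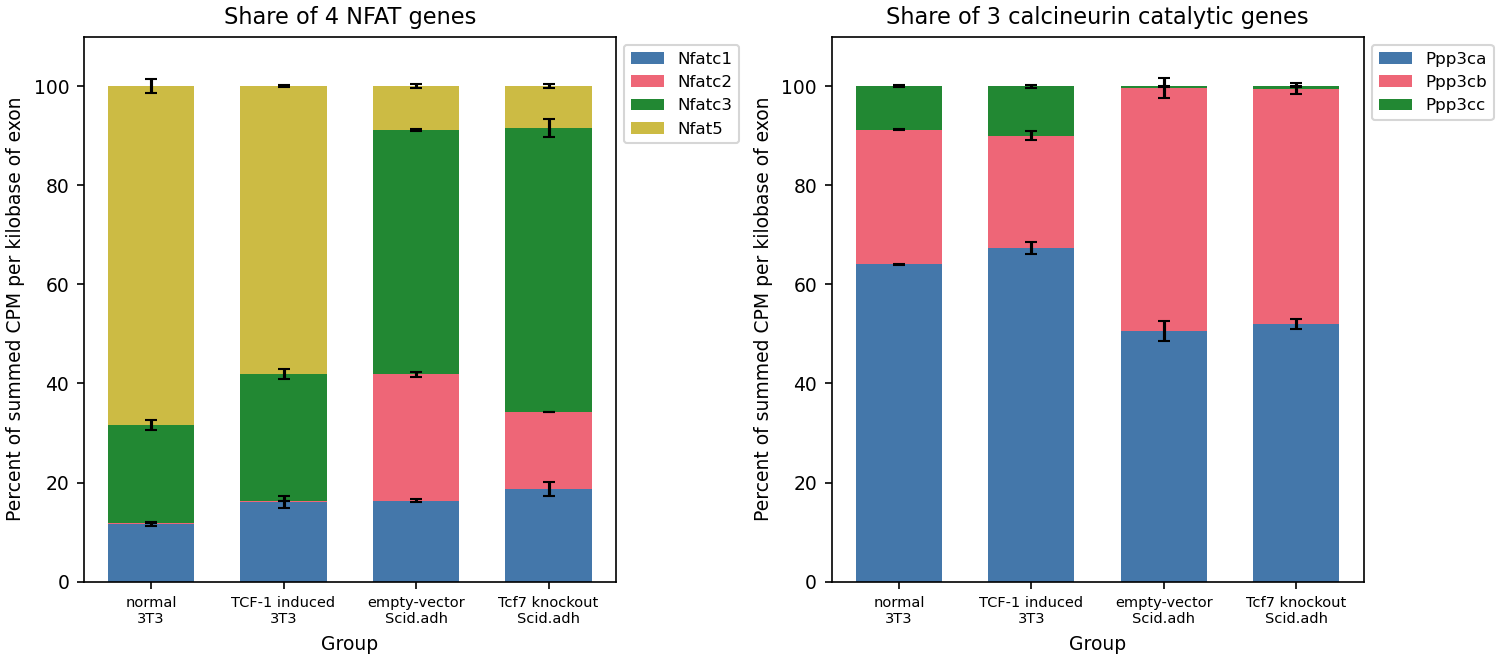
Share of the summed CPM per kilobase of exon (y axis, percent; bars start at 0) of each NFAT gene (left) and each calcineurin catalytic gene (right) in the 4 groups, as stacked means with SD over 2 libraries. Of the 4 genes plotted, Nfat5 has the largest NFAT share in 3T3 and Nfatc3 the largest in Scid.adh, and the Nfatc2 share shrinks from 25.5% to 15.6% in the knockout.

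Whether a gene changed differently in the 2 lines was tested as an interaction in a joint fit of the 8 libraries on the 15854 genes that passed its filter (change after knockout minus change after induction). These manipulations go in opposite directions, and 30.7% of all genes differed, 16.1% with a higher and 14.6% with a lower value in Scid.adh. Ppp3r1 differed by 0.28 on the log2 scale (SE 0.08, 95% interval 0.12 to 0.45; edgeR adjusted p = 0.00854), Rcan1 by 0.54 (SE 0.21; edgeR adjusted p = 0.0446), Ppp3cb by 0.23 (SE 0.09; edgeR adjusted p = 0.0446) and Nfatc2 by -1.17 (SE 0.44, 95% interval -2.07 to -0.27; edgeR adjusted p = 0.0419). The wide interval of Nfatc2 goes with its 10 to 13 counts in each 3T3 library. These calls were weak: of 12 alternatives, that of Ppp3r1 passed in 9, that of Nfatc2 in 5, that of Rcan1 in 3 and that of Ppp3cb in 2. With single libraries left out, the number of members that differed ranged from 0 to 5. It was 0 without normal library 2 and 0 without induced library 1. Ppp3r1 was lost without normal library 2 (0.26), induced library 1 (0.25) or empty-vector library 1 (0.22). Nfat5 (0.21, 95% interval 0.02 to 0.40; edgeR adjusted p = 0.0913) and Nfatc1 (-0.23, 95% interval -0.47 to 0.01; edgeR adjusted p = 0.139) did not pass. These values moved with the knockout library used: without knockout library 2, Nfatc1 passed (-0.42, edgeR adjusted p = 0.00341) and Nfat5 was 0.05. Without knockout library 1, Nfatc1 was -0.12 and Nfat5 passed (0.30, edgeR adjusted p = 0.00567), as it did with upper-quartile factors (0.26, edgeR adjusted p = 0.0401). The difference of Ppp3ca was -0.01 with an interval from -0.18 to 0.15 (edgeR adjusted p = 0.946), and that of Nfatc3 was -0.12 with an interval from -0.28 to 0.05 (edgeR adjusted p = 0.295), passing without knockout library 2 (-0.19, edgeR adjusted p = 0.0360).

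The rest of the pathway was read from 6 lists with 57 genes. In 3T3, 16 of 46 tested entries rose and 16 fell, with a median log2 fold change of -0.02, beside 18.5% rising and 18.3% falling among all genes tested. In Scid.adh, 5 of 40 rose and 12 fell, with a median of -0.04, beside 15.6% and 15.9% of all genes. The counts of the single lists below are to be read against these same shares. The lists were chosen with earlier results of these data known, so the counts are descriptions. Among other family members in 3T3, 3 of 5 rose and 1 fell. The fall was that of Rcan2, a second calcineurin inhibitor, which went from 34.0 and 32.8 CPM to 8.01 and 9.95 CPM (log2 fold change -1.91, SE 0.10; edgeR adjusted p = 7.98e-21), lower than both controls in both induced libraries. Rcan3 (0.37), Nfatc2ip (0.50), which encodes a protein that binds NFAT1, and Ppp3cc (0.35) rose. The call of Nfatc2ip was lost without normal library 2 (0.41) or induced library 2 (0.37), and that of Ppp3cc without either normal library (0.31 and 0.40) or without induced library 2 (0.33). Nfatc4, another calcium-regulated factor, stood at 80.2 and 77.6 CPM in normal and 90.6 and 81.2 CPM in induced 3T3 cells and did not pass (log2 fold change 0.13, edgeR adjusted p = 0.0592), and in Scid.adh its 4 libraries lay under 1 CPM. Rcan3 and Nfatc2ip were tested in Scid.adh and did not pass (edgeR adjusted p = 0.647 and 0.371).

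Upstream of calcineurin, 6 of 12 tested genes of calcium entry and release rose in 3T3 and 2 fell, with a list median of 0.22, where 18.5% of all genes rose and 18.3% fell. Calm2 rose from 215 and 216 to 255 and 267 CPM (log2 fold change 0.28, SE 0.04) and Calm3 by 0.26. Both encode calmodulin, the calcium sensor that switches calcineurin on. Itpr3, an inositol trisphosphate receptor of the endoplasmic reticulum, rose by 0.27 and Orai3, a calcium channel subunit, by 0.38, the latter not without normal library 1 (0.34). The falls were those of Plcg1, a phospholipase (-0.19), and Itpr1, another inositol trisphosphate receptor (-0.14). Itpr1 was not called without a filter on low counts (-0.14) or in the joint fit (-0.16). In Scid.adh 1 of 12 rose and 4 fell, with a median of -0.10. Itpr1 fell there from 275 and 284 to 184 and 212 CPM (log2 fold change -0.50, SE 0.07; edgeR adjusted p = 0.000335), and both knockout libraries were below the controls. The isoform Itpr2 was more abundant, at 536 and 538 against 480 and 636 CPM, and did not pass (0.06). Orai3 fell by 0.48 on the log2 scale, Calm3 by 0.24 and Itpr3 by 0.22. Plcg1, the phospholipase downstream of the T cell receptor, rose by 0.23. Orai3 was lost without empty-vector library 2 (-0.44), and Calm3 (-0.24 and -0.25) and Plcg1 (0.23 and 0.22) without either empty-vector library. Calm3 (-0.16) and Itpr3 (-0.15) were also lost with upper-quartile factors, and Plcg1 (0.18) without a filter on low counts. Itpr3 stood at -0.26 and -0.21 without empty-vector library 1 or 2, and at -0.14 without knockout library 1.

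Of the list headed calcineurin and NFAT restraint, 2 of 9 entries rose in 3T3 and 2 fell, where 18.5% of all genes rose and 18.3% fell. The list also holds Fkbp1a, Ppia and Akap5, and whether each gene restrains calcineurin in these cells was not tested. Its counts are thus no measure of restraint. Cabin1, a calcineurin-binding inhibitor, rose from 99.6 and 93.9 to 131 and 127 CPM (log2 fold change 0.42, SE 0.05; edgeR adjusted p = 4.73e-10), and Lrrk2 fell by 0.30 on the log2 scale. Fkbp1a rose by 0.18 in 3T3, a call lost without normal library 2 (0.16), and Homer3 fell by 0.19 on the log2 scale, a call lost without normal library 1 (-0.17). In Scid.adh 2 of 8 rose and 3 fell. Here Cabin1 fell, from 239 and 261 to 190 and 208 CPM (log2 fold change -0.33, SE 0.07; edgeR adjusted p = 0.00417), a call lost without empty-vector library 2 (-0.27). Fkbp1a, the FK506-binding immunophilin, fell from 153 and 152 to 96.4 and 95.1 CPM (log2 fold change -0.67, SE 0.07; edgeR adjusted p = 2.34e-05). Homer3, which competes with calcineurin for NFAT, rose from 7.76 and 7.58 to 19.0 and 15.4 CPM (1.16, SE 0.19). Homer2, which does the same, went from 0.403 and 0.427 to 2.43 and 1.54 CPM (2.22), on 4 and 4 against 20 and 13 counts. Its call was lost without knockout library 1 (1.85). More genes lay above 0 counts in the knockout libraries, and the part of this in the rise of Homer2 was not tested. Exons of Ddx49, on the opposite strand, cover 25.4% of those of Homer3.

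Among 8 NFAT kinases, which return the factors to the cytoplasm, 2 rose and 3 fell in 3T3. The falls were those of Dyrk1b (log2 fold change -0.39), Gsk3b (243 and 247 to 183 and 199 CPM; -0.36, SE 0.04) and Dyrk1a (-0.22), and Mapk14 (0.20) and Csnk1a1 (0.12) rose. Mapk14 was lost without normal library 1 (0.17), and Csnk1a1 without normal library 1 (0.11) or normal library 2 (0.13). In Scid.adh, Dyrk2 fell from 105 and 113 to 73.1 and 74.2 CPM (-0.57, SE 0.08; edgeR adjusted p = 0.000229), while Gsk3b, at 256 and 246 against 227 and 277 CPM, did not pass. Csnk1e rose there from 0.504 and 0.534 to 2.31 and 2.25 CPM (2.11, SE 0.45), on 5 and 5 against 19 and 19 counts. The part of the larger number of genes above 0 counts in the knockout in this rise was not tested.

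Genes known to respond to NFAT in activated T cells were for the most part at or near 0. Of 14, Il2, Ifng, Cd40lg, Fasl, Ctla4 and Pdcd1 stayed under 0.4 CPM in all 8 libraries and were not tested. In Scid.adh, 4 were tested. Tnf, a cytokine gene, fell from 2.62 and 2.56 to 0.365 and 0.831 CPM (log2 fold change -2.08, SE 0.47; edgeR adjusted p = 0.00491) and Il4 rose from 0.806 and 0.214 to 1.70 and 1.78 CPM (1.72, SE 0.54; edgeR adjusted p = 0.0267), a call lost without empty-vector library 2 (1.09) or knockout library 2 (1.70). In 3T3, 6 were tested, 2 rose and 3 fell. Ptgs2, the inducible cyclooxygenase gene, fell from 539 and 547 to 202 and 219 CPM (-1.37, SE 0.04; edgeR adjusted p = 2.60e-31), and the transcription factor genes Egr3 (-0.43) and Nr4a1 (-0.30) fell. Egr2 rose by 0.19, a call lost without normal library 2 (0.17). Cd5 also passed (0.97), at 0.517 to 1.65 CPM, and was lost without normal library 2 (0.63) or induced library 1 (0.55).

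In 3T3, where Nfat5 fell, 5 of 6 tested osmotic targets of NFAT5 fell and 1 rose, with a list median of -0.44. Among all genes tested, 18.3% fell and 18.5% rose. This list too was chosen with earlier results of these data known, so its count is a description. Hspa4l, a heat-shock protein gene, went from 220 and 227 to 103 and 105 CPM (log2 fold change -1.10, SE 0.04; edgeR adjusted p = 2.09e-25). Slc5a3, the myo-inositol transporter, went from 396 and 401 to 213 and 214 CPM (-0.90, SE 0.04; edgeR adjusted p = 5.80e-25). The amino acid transporter Slc38a2 fell by 0.52 on the log2 scale and the taurine transporter Slc6a6 by 0.37, and the normal and induced libraries of all 4 genes lay apart. Akr1b3, aldose reductase, passed with -0.14, a call lost without either normal library (-0.18 and -0.10) or without induced library 1 (-0.13). S100a4 rose (0.11), a call lost without normal library 1 (0.12) or normal library 2 (0.11). Exons of Gm42674, on the same strand, cover 51.7% of the exon bases of S100a4, so its counts depend on how shared reads were treated. In Scid.adh, 3 of 6 fell, with a median of -0.17: Slc6a6 went from 123 and 131 to 104 and 102 CPM (-0.30, SE 0.07; edgeR adjusted p = 0.0069), Akr1b3 fell by 0.35 on the log2 scale, and S100a4 (-1.49) fell from under 2 CPM. Slc6a6 was lost without empty-vector library 2 (-0.27), Akr1b3 without empty-vector library 1 (-0.21), and S100a4 without each of the 4 libraries in turn (-1.66 to -1.31). Slc5a3, at 47.3 and 48.6 against 40.7 and 61.5 CPM, Slc38a2 and Hspa4l did not pass there. Whether the changes of these genes depend on NFAT5 was not tested. Over the 6 lists, DESeq2 called 23 of the 32 genes in 3T3, where Ppp3cc, Nfatc2ip, Orai3, Itpr1, Itpr2, Homer3, Cd5, Akr1b3 and S100a4 were lost. In Scid.adh the calls of Orai3, Itpr3, Plcg1, Homer2, Ppia, Csnk1e, Il4, Akr1b3 and S100a4 were lost in DESeq2.

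**Figure D4:**
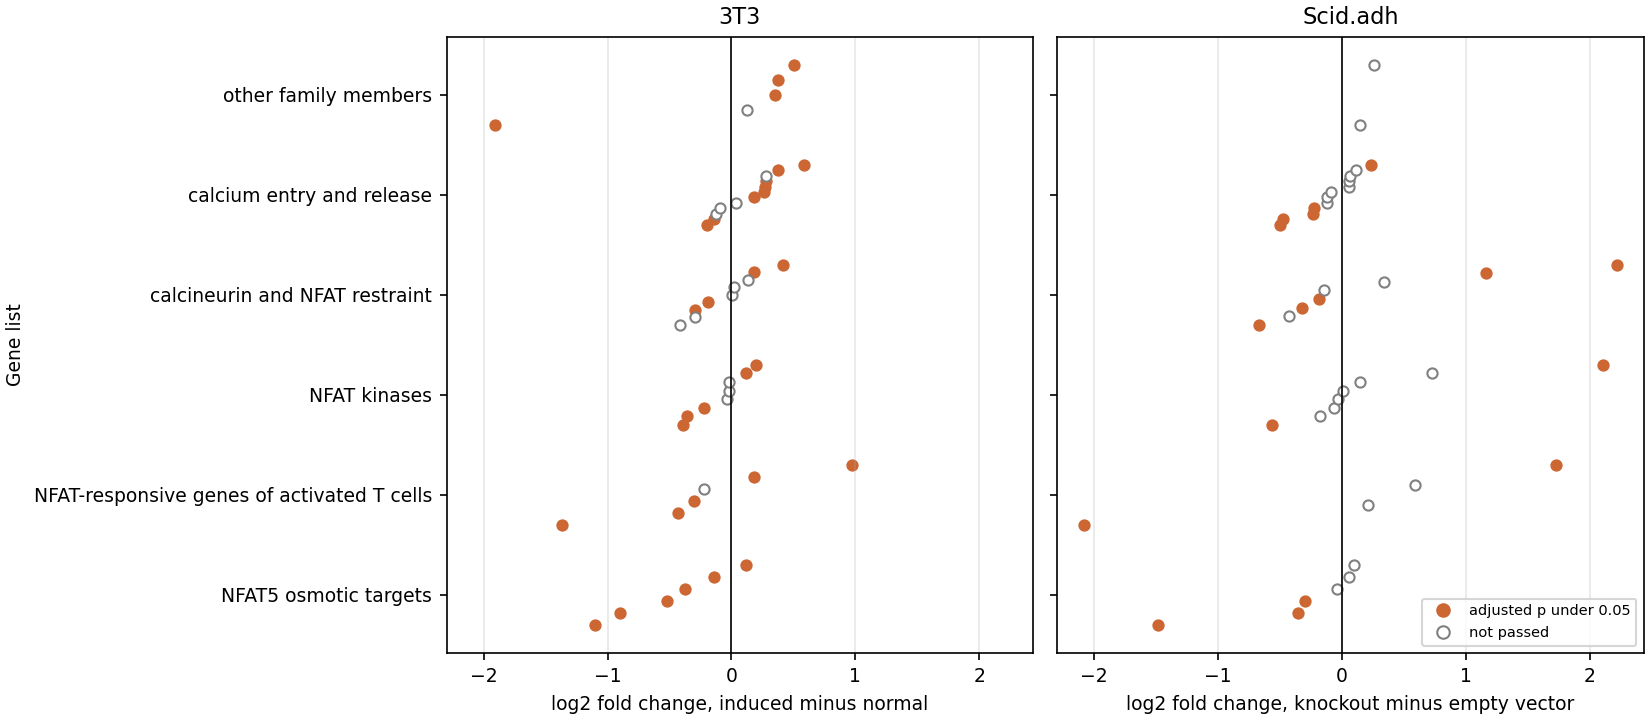
Log2 fold change (x axis) of every tested gene of the 6 pathway lists (y axis) in 3T3 and Scid.adh, orange where the adjusted p was under 0.05 and open where not; genes within a list are spread vertically by rank. In 3T3, 5 of the 6 NFAT5 osmotic targets lie to the left of 0 and Rcan2 (-1.91) lies farthest left among other family members.

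Genes whose pattern was most like that of a member were named by the correlation of log2 CPM over the 8 libraries after the mean of each line was removed, among 8047 or 8048 genes with at least 5 CPM on average in each line. The 8 libraries share 4 groups, and the values are descriptions. Nfatc2 was nearest to Casc3 (r = 0.996), 3110082I17Rik (0.995) and Dgkz (0.993), whose log2 fold changes in Scid.adh were -0.35, -0.60 and -0.31. Nfat5 was nearest to Dnajc13 (0.990), Dennd4c (0.990) and Srgap2 (0.989), which had log2 fold changes of -0.28, -0.45 and -0.18 in 3T3. Nfatc1 was nearest to Slc10a7 (0.983), Zdhhc7 (0.970) and Flna (0.969), and Nfatc3 to Cox14 (0.967), Gng4 (0.964) and Ubxn2a (0.957). Ppp3ca was nearest to Uso1 (0.986), Serinc1 (0.984) and Cenpq (0.983), Ppp3cb to Jak1 (0.985), Ric1 (0.977) and Mtmr10 (0.971), Ppp3r1 to Rbm39 (0.991), Coq10a (0.990) and Scpep1 (0.986), and Rcan1 to Nipa2 (0.959), Cenpl (0.957) and Avpi1 (0.955). With 2 libraries per group, many genes reach such values.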

How the data were processed

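The authors deposited whole-number gene counts, 1 file per library, from paired reads of total RNA (SMARTer stranded kit, per the labels' protocols). STAR 2.5.0a, HTSeq 0.6.1 and GRCm38 are named per the submitters' processing notes. For the 3T3 files the counting program, and for all files the strand setting and annotation release, were not given in the sources used here. Summary rows of the Scid.adh files were left out: reads outside genes were 21.3% to 25.8% and ambiguous reads 2.20% to 2.44% of all reads. Symbols, positions and exon lengths came from GENCODE M21, and promoter sequences from RefSeq. All 57 list symbols were found, Nron under 2 identifiers in the 3T3 table.

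Each line was fitted alone with edgeR 4.0.16 in R 4.3.3 (filterByExpr, TMM, robust quasi-likelihood F-test, Benjamini-Hochberg). A standard error is the log2 fold change divided by the root of its F statistic, and intervals use the fit's degrees of freedom. Adjusted p-values without another tool named are edgeR's. Replicate spread, as a biological coefficient of variation, came to 2.41% (3T3) and 5.94% (Scid.adh). Alternatives were DESeq2 1.42.0, limma-voom (limma 3.58.1), 2 other scalings, 2 other filters, each library left out, a replicate block, a joint fit and a test against 1.5-fold. The steps were run on simulated data, drawn for each line with the replicate spread fitted to these libraries. This cannot show whether that spread is technical. The members and lists were chosen with earlier results of these data known. Named were all members, in each list and line at most 6 called genes by size of change, otherwise the most abundant or, to fill a count, genes chosen after their values were seen, and the 3 most correlated genes per member. The values of 1 gene of the lists are not reported here.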

Additional observations from a re-analysis of the deposited data

How the results depend on the processing

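Of 102 alternative values of the members' log2 fold changes in 3T3, 90 kept their sign and side of the threshold, 7 lost and 3 gained a call and 2 turned sign. In Scid.adh these numbers were 77, 19, 1 and 7 of 104, and for the differences between lines 60, 29, 4 and 3 of 96. The sign turned for genes near 0: Rcan1 in 3T3 without normal library 1 or induced library 1 (leave-one-out range -0.070 to 0.184), Nfatc1 in Scid.adh with upper-quartile factors (0.065) and without knockout library 1 (range -0.183 to 0.128), and Nfatc3 in Scid.adh with DESeq2 size factors (0.0043), upper-quartile factors (0.078), DESeq2 (0.0043), a minimum of 1 CPM (0.0033) and without knockout library 1 (range -0.053 to 0.042). The difference of Ppp3ca between lines turned with upper-quartile factors (0.037) and without induced library 2 or empty-vector library 2 (range -0.103 to 0.049).

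Calls over all genes were 6693 in 3T3, 4012 in DESeq2 and 917 against 1.5-fold, and 4753 to 6809 with a library left out. In Scid.adh they were 3760, 1960 in DESeq2 and 724 against 1.5-fold, and 2221 to 4210 with a library left out. Of the 4 members called in 3T3, 0 passed against 1.5-fold in edgeR, where all 4 had passed against no change. Of the 4 in Scid.adh, 1 passed in DESeq2, 2 without a filter, 1 against 1.5-fold and 1 to 4 with a library left out. Pathway calls in 3T3 went from 32 to 4 against 1.5-fold. In Scid.adh they went from 17 to 8 in DESeq2 and 4 against 1.5-fold, and to 9 to 22 with a library left out. Members that differed between lines numbered 4, and 2 with DESeq2 size factors, 1 without a filter, 2 with the replicate block and 0 to 5 with a library left out. The test against 1.5-fold asks for a larger change, and leaving out a library leaves a group with 1 sample assumed to vary like the others; the cause of the other shifts was not tested. Shares of the NFAT genes with Nfatc4 added to the sum are given with the shares. Levels over the genes of both tables without TMM were 0.953 to 1.05 times the values given. This was a shift between groups in Scid.adh. Each member stood at 0.953 times with the empty vector and at 1.04 to 1.05 times in the knockout. Every change in Scid.adh would thus lie higher on that scale.

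The labels share replicate numbers between groups but do not say that they mark a shared batch, and same-numbered libraries deviated together little (correlation 0.0942 over 11482 genes in 3T3 and -0.0152 over 9000 in Scid.adh). With the replicate block, 7210 and 4038 genes were called, with 5 members in 3T3 and 4 in Scid.adh.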
